A study of Mus musculus with 32 samples.

Results

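Gene expression was compared between Kat6b knockout and wild-type dorsal telencephalon of mouse embryos at E12.5 (days of gestation), the part of the forebrain that forms the cerebral cortex. The comparison used 6 of the 32 RNA sequencing libraries of the series, 3 labelled as knockout (replicates 1, 3 and 4) and 3 as wild type (replicates 1, 3 and 4). They were chosen by the labelled genotype, age, tissue and mouse strain, and each came from 1 embryo. The knockout embryos were Kat6b-/- and the wild-type embryos carried no listed mutation, all on the C57BL/6 background. Knockout replicate 1 and wild-type replicate 1 were littermates, and the other 4 embryos shared a second litter. For comparison, the series also holds 5 knockout and 5 wild-type C57BL/6 cortex libraries at E15.5. It further holds 4 libraries of Tg(Kat6b), a transgene that overexpresses Kat6b, and 4 of their wild-type controls at E12.5 on a mixed FVBxBALB/c background. The sources used here do not state which part of Kat6b the knockout allele removes, nor the promoter of the transgene.

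KAT6B belongs to the MYST family of lysine acetyltransferases, which add acetyl groups to histone tails. KAT6A and KAT6B work in a complex with a BRPF scaffold, an ING reader and MEAF6, and acetylate histone H3 at active genes. Loss of KAT6B function in mice is known for a thin cerebral cortex with fewer neurons, and variants of human KAT6B cause intellectual disability syndromes. At E12.5 the dorsal telencephalon is mostly a sheet of dividing apical progenitors that has begun to make its earliest neurons.

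Total counts per library were 22952251 to 29148913 in the knockout and 18039586 to 43095686 in wild type. Levels are given in CPM (counts divided by the TMM-scaled size of the library and multiplied by 1000000). The dorsal factors Emx2 (80.4 to 174 CPM in knockout, 118 to 187 in wild type) and Tbr1 (154 to 234 CPM in knockout, 214 to 231 in wild type) were present in every library, as the tissue label says. The first principal component, with 48.6% of the variance, did not separate the genotypes. It placed the knockout libraries at -19.4, -11.7 and 39.8 and the wild-type libraries at -50.3, 23.1 and 18.4. Ribosomal RNA took 0.127%, 0.469% and 0.525% of the counts in the knockout libraries and 0.130%, 0.0887% and 0.0865% in the wild-type libraries. By Xist and the Y-linked genes, wild-type replicate 4 matched a female embryo and the other 5 libraries matched males. The closest pair of libraries was knockout replicate 4 and wild-type replicate 3, which were littermates. Their log2 CPM differed with an SD of 0.329 across genes. The median SD was 0.493 over the 5 littermate pairs of different genotype and 0.466 over the 2 littermate pairs of the same genotype.

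**Figure D1:**
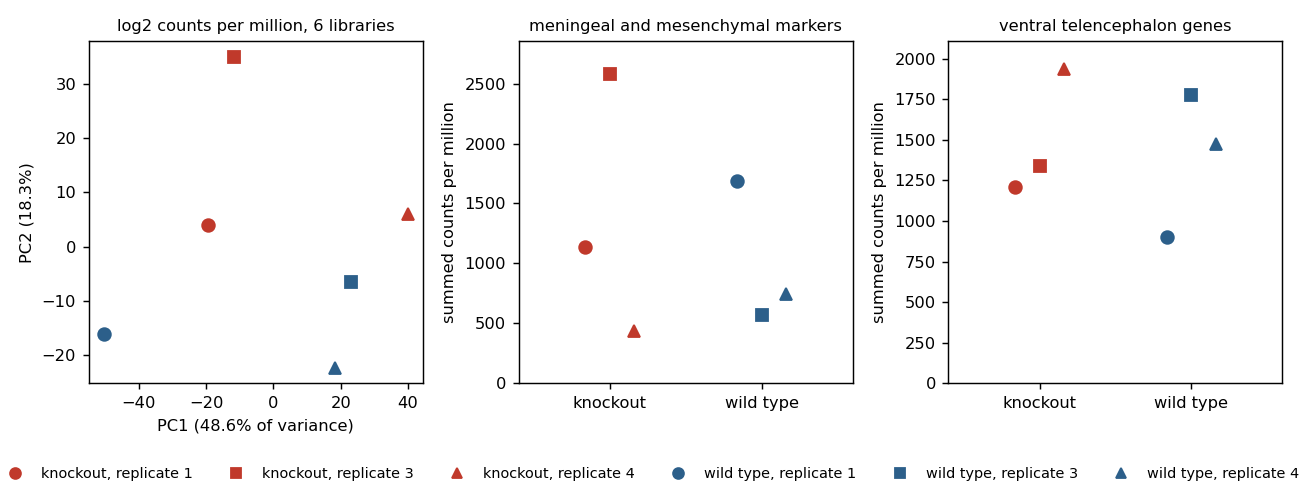
Left, the first and second principal components of log2 CPM for the 6 libraries, 3 knockout (red) and 3 wild type (blue), with the marker shape giving the replicate. The genotypes overlap on the first component and are apart on the second. Centre and right, the summed CPM of the meningeal and mesenchymal markers and of the ventral telencephalon genes in each library; neither sum separates the genotypes, and knockout replicate 3 has the highest mesenchymal sum, 2583 CPM.

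The targeted gene was not depleted in the counts. Kat6b (Entrez 54169, mm10 chr14:21499216-21672478) had 189, 150 and 120 CPM in the knockout libraries and 194, 166 and 153 CPM in the wild-type libraries. The groups overlapped, and the log2 fold change was -0.16 (knockout over wild type, SE 0.139, adjusted p = 0.918 by edgeR's quasi-likelihood test with Benjamini-Hochberg adjustment over all genes). Each gene has 1 count for all its exons, in which the loss of some exons need not show, and so these values do not check the genotype labels. Around Kat6b, 20 other tested genes lay within 1000000 bp, with a median log2 fold change of -0.02 and 0 called at an adjusted p of 0.05, which 0.0062% of all tested genes passed. Of these 20, 3 had every knockout library below every wild-type library, as did 4.47% of all tested genes: Samd8, a sphingomyelin synthase relative (-0.27), the adaptor subunit gene Ap3m1 (-0.12) and Usp54 (-0.10).

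The partners and relatives of KAT6B showed small differences. Per kilobase of exon, the wild-type levels of the MYST genes were 31.6 CPM for Kat6a, 30.1 for Kat5, 23.3 for Kat6b, 22.4 for Kat8 and 19.5 for Kat7. Kat6a, the closest relative of Kat6b, had 259, 241 and 238 CPM in the knockout and 342, 271 and 252 CPM in wild type. That is -0.23 on the log2 scale (SE 0.108, adjusted p = 0.881 by edgeR), and it was -0.08 without wild-type replicate 1. The scaffold genes Brpf1, Brd1 and Brpf3 were at 0.02, -0.04 and 0.08, the readers Ing4 and Ing5 at 0.11 and -0.05, and Meaf6 at 0.06. None of the 11 genes of this list was called, and 5 lay below 0 with a median of 0.02. Of all genes tested, 53.1% lay below 0 and 46.9% above, with a median of -0.01.

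Of 16118 genes tested, 1 passed an adjusted p of 0.05 by edgeR, which is 0.0062% of genes, and it was lower in the knockout. This gene was Stac (Entrez 20840, mm10 chr9:111561437-111690588), which encodes an adaptor protein with SH3 and C1 domains that binds voltage-gated calcium channels. Stac had 2.35, 1.83 and 1.75 CPM in knockout replicates 1, 3 and 4 and 5.10, 5.08 and 5.09 CPM in wild-type replicates 1, 3 and 4. The highest knockout value, 2.35 CPM, was less than the lowest wild-type value, 5.08 CPM. Stac fell by 1.37 on the log2 scale (SE 0.177, adjusted p = 0.0102 by edgeR), to a mean of 1.98 ± 0.324 CPM in the knockout against 5.09 ± 0.0118 CPM in wild type (SD, n = 3 each). In bulk tissue, fewer cells that express a gene and less of its RNA per cell cannot be told apart.

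The Stac values rest on 57, 54 and 54 counts in the knockout libraries and 150, 229 and 96 counts in the wild-type libraries. Exact Poisson 95% intervals, which cover counting error only, ran from 1.31 to 3.04 CPM over the knockout libraries and from 4.13 to 6.22 CPM over the wild-type libraries, with no overlap. The SD among the wild-type libraries, 0.0118 CPM, was smaller than the counting error of each of them, 0.336 to 0.52 CPM, so the agreement of these 3 values is closer than their depth can resolve. Over 18 alternative settings the log2 fold change of Stac stayed between -1.50 and -1.29, while the call held in 10 and ended in 8. The call ended with litter as a block (adjusted p = 0.0617 by edgeR), with the replicate number as a block (0.150), with a Y-linked covariate (0.0570) and with a fit of these 6 libraries alone (1.00). It also ended without wild-type replicate 3 (0.0636) or 4 (0.0611) and without knockout replicate 3 (0.155) or 4 (0.138).

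Stac is the founder of a family of 3. Per kilobase of exon, wild-type tissue had 2.02 CPM of Stac, 1.83 of Stac2 and 0.827 of Stac3. Stac2 had 5.93, 6.68 and 8.22 CPM in the knockout and 2.07, 7.83 and 6.79 CPM in wild type, which gives 0.32 on the log2 scale (SE 0.303). Stac3, which couples the membrane calcium channel to calcium release in skeletal muscle, was at 0.70 (SE 0.317) with overlapping groups. The channel genes that STAC proteins act on were close to 0 or imprecise, with Cacna1c at 0.10 (SE 0.135) and Cacna1s at 1.08 (SE 0.617). In the list of STAC genes and their muscle partners 1 of 9 members was called, Stac itself, against 0.0062% of all tested genes. Of the 9, 3 lay below 0, against 53.1% of all tested genes. The list was chosen with earlier results of these data known, so the call within it adds no support.

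**Figure D2:**
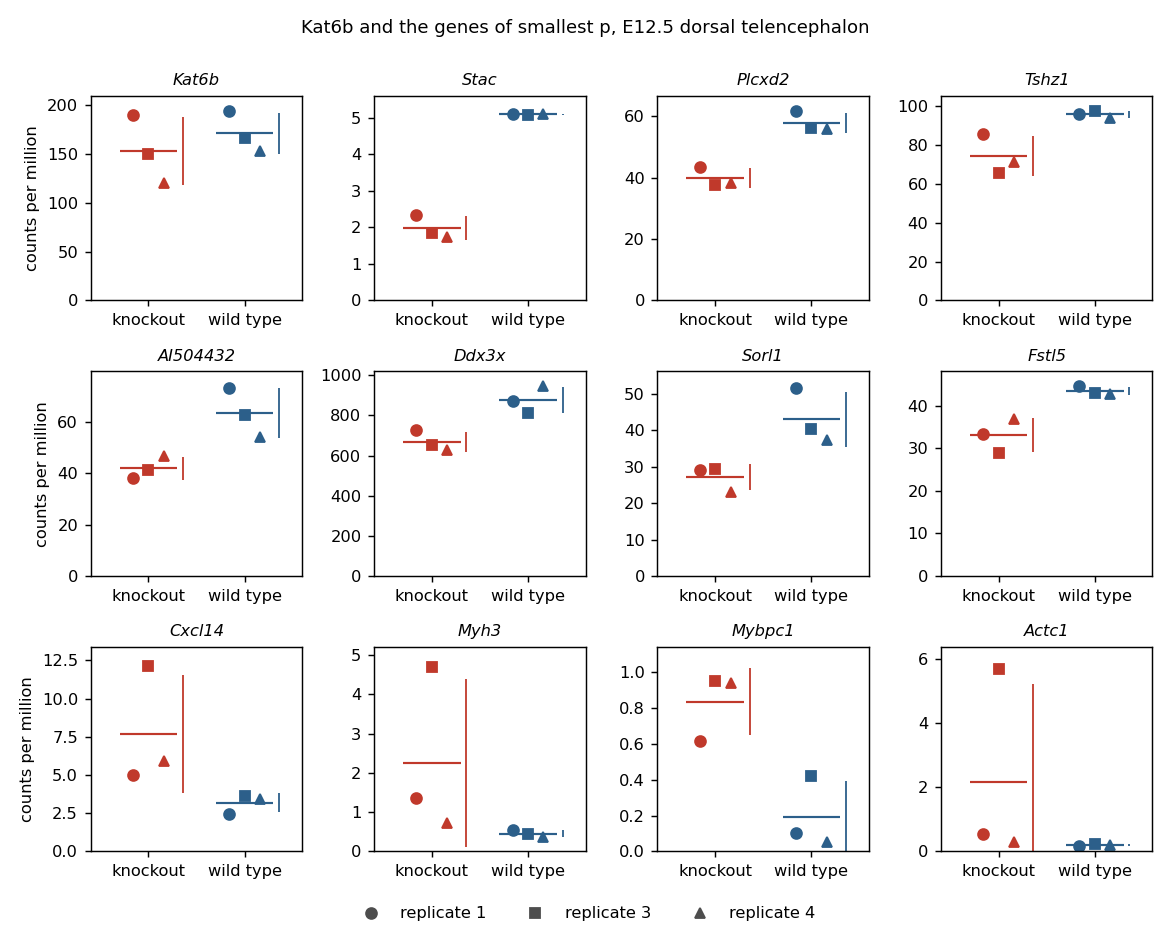
CPM of Kat6b, of the 7 genes of smallest p that were lower in the knockout and of the 4 that were higher, with each library as a point (marker shape gives the replicate), the mean as a horizontal line and 1 SD on either side of it as a vertical bar (ended at 0 where it would pass below), n = 3 per genotype. Knockout and wild-type libraries overlap for Kat6b and do not overlap for the other 11 genes, which were picked by their p in these libraries. Knockout replicate 3 stands above the other knockout libraries for Cxcl14, Myh3 and Actc1.

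An unadjusted p below 0.05 was found for 842 genes (5.22%), of which 588 were lower in the knockout (3.65%) and 254 higher (1.58%). The lower set was of well-expressed genes with small differences, with a median wild-type level of 72.0 CPM and a median log2 fold change of -0.29. The higher set was of weakly expressed genes, with a median wild-type level of 5.66 CPM and a median of 0.55. The median wild-type level of all tested genes was 23.6 CPM. Every knockout library lay below every wild-type library for 721 genes (4.47%) and above for 457 genes (2.84%). The 95% interval of the fold change stayed within 1.5-fold in both directions for 10053 genes (62.4%) and within 2-fold for 13229 (82.1%).

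Exon length also differed between these sets. The median exon length was 5194 bp in the lower set, 2154 bp in the higher set and 2796 bp over all tested genes. When the genes were cut into 5 equal classes by exon length, the median log2 fold change went down class by class, with 0.06 in the shortest, 0.02, -0.01 and -0.04 in the next, and -0.10 in the longest. In the longest class the median deviations of the libraries from their common mean were -0.05, -0.05 and -0.06 in the knockout and 0.13, 0.06 and -0.03 in wild type, so wild-type replicate 4 lay on the knockout side of 0. The part of transcript length in any difference below was not tested.

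**Figure D3:**
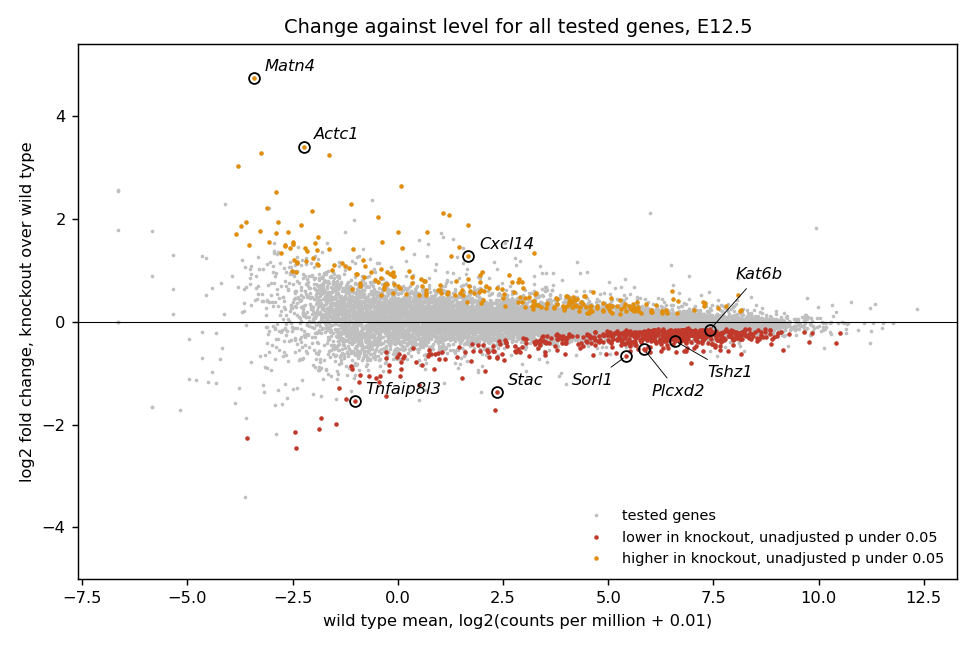
Log2 fold change (knockout over wild type) against the wild-type mean, log2(CPM + 0.01), for the tested genes, with genes at an unadjusted p under 0.05 in red where lower in the knockout (588 genes) and orange where higher (254 genes). Stac, at -1.37, is among the lowest of the genes at its level, and 2 genes fall outside the plotted range.

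The gene with the next smallest p was Plcxd2, which encodes a protein with a phospholipase C domain. Plcxd2 (Entrez 433022, mm10 chr16:45959261-46010413) had 43.7, 37.8 and 38.2 CPM in the knockout libraries and 61.7, 56.2 and 55.9 CPM in the wild-type libraries. The groups were apart, and with 1054 counts or more per library the counting error was small. Plcxd2 was at -0.54 on the log2 scale (SE 0.0935, 95% interval -0.74 to -0.34) with an adjusted p of 0.186 by edgeR and 0.000536 by DESeq2. With litter as a block its adjusted p was 0.0617.

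The promoters of Stac, Plcxd2 and Cxcl14 are shown because these are the 3 genes of smallest p, and each has an entry in the RefSeq promoter table, as do 12213 of the 16118 tested genes. Each runs over 300 bases, from 250 before to 50 after the annotated start (RefSeq, GRCm38.p6, all on the minus strand, 5′ to 3′ along the gene). Capitals mark the GC box GGGCGG and the CCAAT box CCAAT, each searched on both strands, where overlapping matches run together.
Stac, chr9:111690299-111690598: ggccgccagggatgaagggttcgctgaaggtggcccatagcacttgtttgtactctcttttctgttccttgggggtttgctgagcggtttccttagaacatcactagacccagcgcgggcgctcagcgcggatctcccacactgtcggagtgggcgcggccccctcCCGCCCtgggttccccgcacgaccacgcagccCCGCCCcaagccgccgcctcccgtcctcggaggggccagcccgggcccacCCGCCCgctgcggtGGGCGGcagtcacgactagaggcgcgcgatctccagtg
Plcxd2, chr16:46010364-46010663: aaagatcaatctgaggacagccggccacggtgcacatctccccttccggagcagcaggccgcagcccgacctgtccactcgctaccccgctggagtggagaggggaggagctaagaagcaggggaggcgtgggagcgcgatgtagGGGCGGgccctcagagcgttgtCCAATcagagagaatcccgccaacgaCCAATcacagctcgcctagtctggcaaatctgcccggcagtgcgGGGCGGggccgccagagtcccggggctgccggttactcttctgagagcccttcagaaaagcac
Cxcl14, chr13:56296502-56296801: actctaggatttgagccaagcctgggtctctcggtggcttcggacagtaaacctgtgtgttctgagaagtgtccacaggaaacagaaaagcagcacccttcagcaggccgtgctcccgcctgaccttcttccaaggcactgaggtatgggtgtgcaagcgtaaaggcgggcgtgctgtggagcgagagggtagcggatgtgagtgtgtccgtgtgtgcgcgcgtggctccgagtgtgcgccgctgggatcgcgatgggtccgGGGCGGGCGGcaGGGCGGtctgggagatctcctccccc

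The 3 windows are rich in CpG, with 29 CpG in Stac, 21 in Plcxd2 and 22 in Cxcl14, against a median of 7 over the 32851 promoters of the table. Stac had more CpG than 87.1% of these promoters. The GC box occurred 4 times in Stac, 2 times in Plcxd2 and 3 times in Cxcl14, and it was present in 35.7% of all promoters. The CCAAT box occurred 2 times in Plcxd2 and in neither of the others, against 37.4% of all promoters. These matches describe the letters of the windows and nothing about the binding of a factor there.

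None of the other 10 genes of smallest p on the lower side was called by edgeR (adjusted p of 0.867 to 0.881). For all 12 lower genes of smallest p, Stac and Plcxd2 included, every knockout library lay below every wild-type library. The 12 were picked by their p in these same libraries, so this separation adds no support. Of the 588 lower genes at an unadjusted p under 0.05, 60.5% had no overlap. Every knockout library lay below every wild-type library for 4.47% of all tested genes. Tshz1, a teashirt zinc finger transcription factor, had 85.6, 65.7 and 71.1 CPM in the knockout and 95.9, 97.5 and 94.0 CPM in wild type (-0.37, SE 0.0808). The noncoding gene AI504432 had 37.9, 41.2 and 46.7 CPM in the knockout and 73.2, 62.5 and 54.0 CPM in wild type (-0.59, SE 0.129). Sorl1, a sorting receptor for the amyloid precursor protein, had 29.1, 29.2 and 22.97 CPM in the knockout and 51.5, 40.3 and 37.3 CPM in wild type (-0.67, SE 0.159). The lowest wild-type value of Sorl1 was thus 37.3 CPM, against a highest knockout value of 29.2 CPM.

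Cnr1, the cannabinoid receptor of growing cortical axons, had 76.6, 72.0 and 85.8 CPM in the knockout and 89.9, 131 and 126 CPM in wild type (-0.56, SE 0.138). Prkcb, a protein kinase C, had 31.4, 31.4 and 37.5 CPM in the knockout and 44.2, 47.4 and 46.6 CPM in wild type (-0.46, SE 0.121). The kinase gene Hipk1 was at -0.41 (SE 0.108), the secreted follistatin relative Fstl5 at -0.40 (SE 0.0945) and the guidance gene Sema5a at -0.57 (SE 0.151). Wild-type replicate 1 set part of the Sema5a value, which was -0.34 without it. Tnfaip8l3 had the lowest log2 fold change of the 12, -1.54 (SE 0.402), at 0.102 to 0.206 CPM in the knockout and 0.311 to 0.690 CPM in wild type.

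Ddx3x, an X-linked RNA helicase gene that also escapes X inactivation, had 725, 654 and 628 CPM in the knockout and 871, 814 and 945 CPM in wild type (-0.39, SE 0.0875). Its highest value came from the female wild-type library, replicate 4. Without that library the log2 fold change was -0.33, and both male wild-type libraries lay above all 3 knockout libraries. By DESeq2, Plcxd2, Tshz1, Ddx3x and, on the higher side, Cxcl14 passed beside Stac. By limma-voom 1 gene passed, Stac. The library kit does not keep the strand of a read. By their full span, introns included, 8 of the 12 genes overlap an annotated gene on the other strand, Stac and Plcxd2 among them. Reads of a gene and of its neighbour cannot be told apart where their exons overlap, which was not checked.

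On the higher side the smallest p belonged to Cxcl14, a chemokine gene. Cxcl14 had 5.02, 12.1 and 5.92 CPM in the knockout and 2.48, 3.64 and 3.45 CPM in wild type, so the lowest knockout value exceeded the highest wild-type value. The log2 fold change was 1.27 (SE 0.274, adjusted p = 0.867 by edgeR, 0.0322 by DESeq2), and it was 0.78 without knockout replicate 3. Of the 12 genes of smallest p on this side, 9 had no overlap between the groups, and all were weakly expressed. These 12 were also picked by their p in these libraries. Of the 254 higher genes at an unadjusted p under 0.05, 52.8% had no overlap. Every knockout library lay above every wild-type library for 2.84% of all tested genes. Gdf10, a relative of bone morphogenetic proteins, had 4.20, 9.19 and 3.79 CPM in the knockout and 2.18, 2.22 and 2.76 CPM in wild type (1.27, SE 0.342). Rarres2, which encodes chemerin, had 0.453, 0.475 and 0.485 CPM in the knockout and 0.136, 0.155 and 0.212 CPM in wild type (1.51, SE 0.402).

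Among the others, the values of Myh3, Actc1 and Matn4 come mostly from knockout replicate 3. Myh3, the embryonic myosin heavy chain, had 1.36, 4.68 and 0.712 CPM in the knockout and 0.544, 0.444 and 0.371 CPM in wild type. Actc1, the cardiac actin that embryonic muscle also uses, had 0.535, 5.70 and 0.291 CPM in the knockout and 0.170, 0.222 and 0.212 CPM in wild type. The matrix gene Matn4 had 5, 207 and 1 counts in the knockout and 6, 2 and 0 counts in wild type. Without knockout replicate 3 the log2 fold change was 1.16 for Myh3 against 2.29 with it, 0.99 for Actc1 against 3.40, and 0.35 for Matn4 against 4.74. Mybpc1, a myosin-binding protein gene of muscle, did not depend on that library. It had 0.617, 0.95 and 0.938 CPM in the knockout and 0.102, 0.421 and 0.0531 CPM in wild type (1.88, SE 0.477), with values of 1.78 without knockout replicate 3 and of 1.56 to 3.29 over all the single libraries left out.

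A list of skeletal muscle genes, chosen after these values were seen, had 16 tested members, of which 14 lay above 0 and 5 had every knockout library above every wild-type library (2.84% of all tested genes). Its summed level was 13.9, 36.4 and 15.9 CPM in the knockout and 14.9, 13.9 and 13.2 CPM in wild type. The median log2 fold change was 0.79, and it was 0.04 without knockout replicate 3. All 20 meningeal and mesenchymal markers lay above 0 (median 0.37) with no member called. Their summed level was 1138, 2583 and 435 CPM in the knockout and 1685, 568 and 745 CPM in wild type, so the groups overlapped. With knockout replicate 3 left out the median turned to -0.35. With the mean level of these markers as a covariate Stac stayed called (adjusted p = 0.0144 by edgeR). That fit, added after the data were seen, shares a slope over the 16 C57BL/6 libraries of both ages. It cannot settle the part of tissue makeup in the Stac value.

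The regulators of cortical progenitors and of cortical areas lay mostly below 0, where 53.1% of all tested genes also lay. These lists were chosen with earlier results of these data known, so their counts are not independent support. Of the 23 area patterning factors 20 lay below 0 (median -0.24), and 8 had an unadjusted p under 0.05 on that side (3.65% of all tested genes). Every knockout library lay below every wild-type library for 5 of the 23 (4.47% of all tested genes). Every knockout library lay above every wild-type library for 1 (2.84% of all tested genes). Lhx2, the LIM homeobox factor that specifies cortical identity, had 498, 339 and 325 CPM in the knockout and 602, 517 and 577 CPM in wild type (-0.55, SE 0.149). Nr2e1, a nuclear receptor of neural stem cells, had 190, 153 and 158 CPM in the knockout and 220, 193 and 200 CPM in wild type (-0.29, SE 0.102). Bcl11a, a zinc finger factor of cortical neurons and area maps, had 208, 181 and 206 CPM in the knockout and 224, 274 and 259 CPM in wild type (-0.35, SE 0.119). The dorsal factor Emx1 had 77.0, 42.3 and 33.3 CPM in the knockout and 75.7, 70.6 and 81.2 CPM in wild type (-0.58, SE 0.260), so its lower mean came from knockout replicates 3 and 4.

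The median deviation of the area patterning genes from their mean over the 6 libraries was 0.10, -0.22 and -0.23 in the knockout and 0.26, 0.10 and 0.12 in wild type. Knockout replicate 1 thus lay among the wild-type libraries. Of the 24 apical progenitor genes 19 lay below 0 (median -0.20, or -0.30 without knockout replicate 1 and -0.09 without either knockout replicate 4 or wild-type replicate 1). Every knockout library lay below every wild-type library for 4.47% of all tested genes and for 3 of these 24. These were Lhx2, Nr2e1 and Pax6, a master regulator of cortical progenitors, which had 148, 136 and 141 CPM in the knockout and 192, 154 and 149 CPM in wild type (-0.22, SE 0.0873). Without wild-type replicate 1 Pax6 was at -0.09. Pax6, Lhx2, Nr2e1 and Emx2 are also among the area patterning factors, so the lists share members. Of the 17 SOX transcription factors 16 lay below 0 (median -0.21). Only 1 of the 17, Sox5, had every knockout library below every wild-type library, against 4.47% of all tested genes. In all 3 of these lists no member was called, and their medians at E15.5 were -0.17, -0.14 and -0.20 in the same order.

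Among intermediate progenitor genes, which mark the cells that divide once more before they become neurons, 12 of 18 lay below 0 (median -0.11). Neurog2, the proneural factor of the cortex, had 191, 183 and 204 CPM in the knockout and 234, 230 and 235 CPM in wild type (-0.27, SE 0.0987), with the groups apart. Eomes, which defines these cells, had 174, 128 and 110 CPM in the knockout and 166, 167 and 171 CPM in wild type (-0.29, SE 0.166), and here knockout replicate 1 was the highest of the 6. Of 25 mitosis genes 22 lay below 0 (median -0.12), but none at an unadjusted p under 0.05, and the median was 0.01 without wild-type replicate 1. Of 26 DNA replication genes 23 lay below 0 (median -0.10), and 0 had groups that did not overlap. That median was -0.22 without knockout replicate 1, 0.00 without knockout replicate 4 and -0.01 without wild-type replicate 1. Cyclins, CDK inhibitors and p53 targets were split, with 11 of 21 below 0.

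Genes of projection neurons also lay mostly below 0, where 53.1% of all tested genes lay. Other neuron lists were split. Of the preplate and subplate neuron genes 8 of 14 lay below 0 (median -0.03), and of the Cajal-Retzius cell genes 7 of 15 (median 0.02). Of 18 deep-layer genes 15 lay below 0 (median -0.18, or -0.29 to -0.18 with 1 library left out). Every knockout library lay below every wild-type library for 4 of the 18, against 4.47% of all tested genes. Nfib, a nuclear factor I gene that drives cortical maturation, had 220, 185 and 149 CPM in the knockout and 284, 299 and 272 CPM in wild type (-0.63, SE 0.178). Its relative Nfia had 97.2, 89.9 and 73.0 CPM in the knockout and 122, 117 and 109 CPM in wild type (-0.42, SE 0.159). Both had wild-type libraries close together and all knockout libraries below them. Nfib and Nfia are also in the list of glial lineage genes, of which 12 of 17 lay above 0 (median 0.14). Otx1 was at -0.43 (SE 0.134) with knockout replicate 1 just inside the wild-type range.

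Of 16 upper-layer genes 14 lay below 0 (median -0.18, or -0.06 without knockout replicate 1 and -0.10 without wild-type replicate 3), with Cux1 at 194, 175 and 182 CPM in the knockout and 212, 204 and 218 CPM in wild type (-0.20, SE 0.0590). The neuronal bHLH gene Neurod6 had 65.9, 72.8 and 77.3 CPM in the knockout and 79.6, 155 and 143 CPM in wild type (-0.81, SE 0.241). Wild-type replicate 1, which had the lowest pan-neuronal level of all 6 libraries, was also the wild-type library closest to the knockout here. The 22 pan-neuronal genes as a list had 11 below 0 and 11 above. Their median deviations were -0.30, -0.13 and 0.40 in the knockout and -0.47, 0.29 and 0.21 in wild type, so the spread within each genotype was wider than the difference between them.

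**Figure D4:**
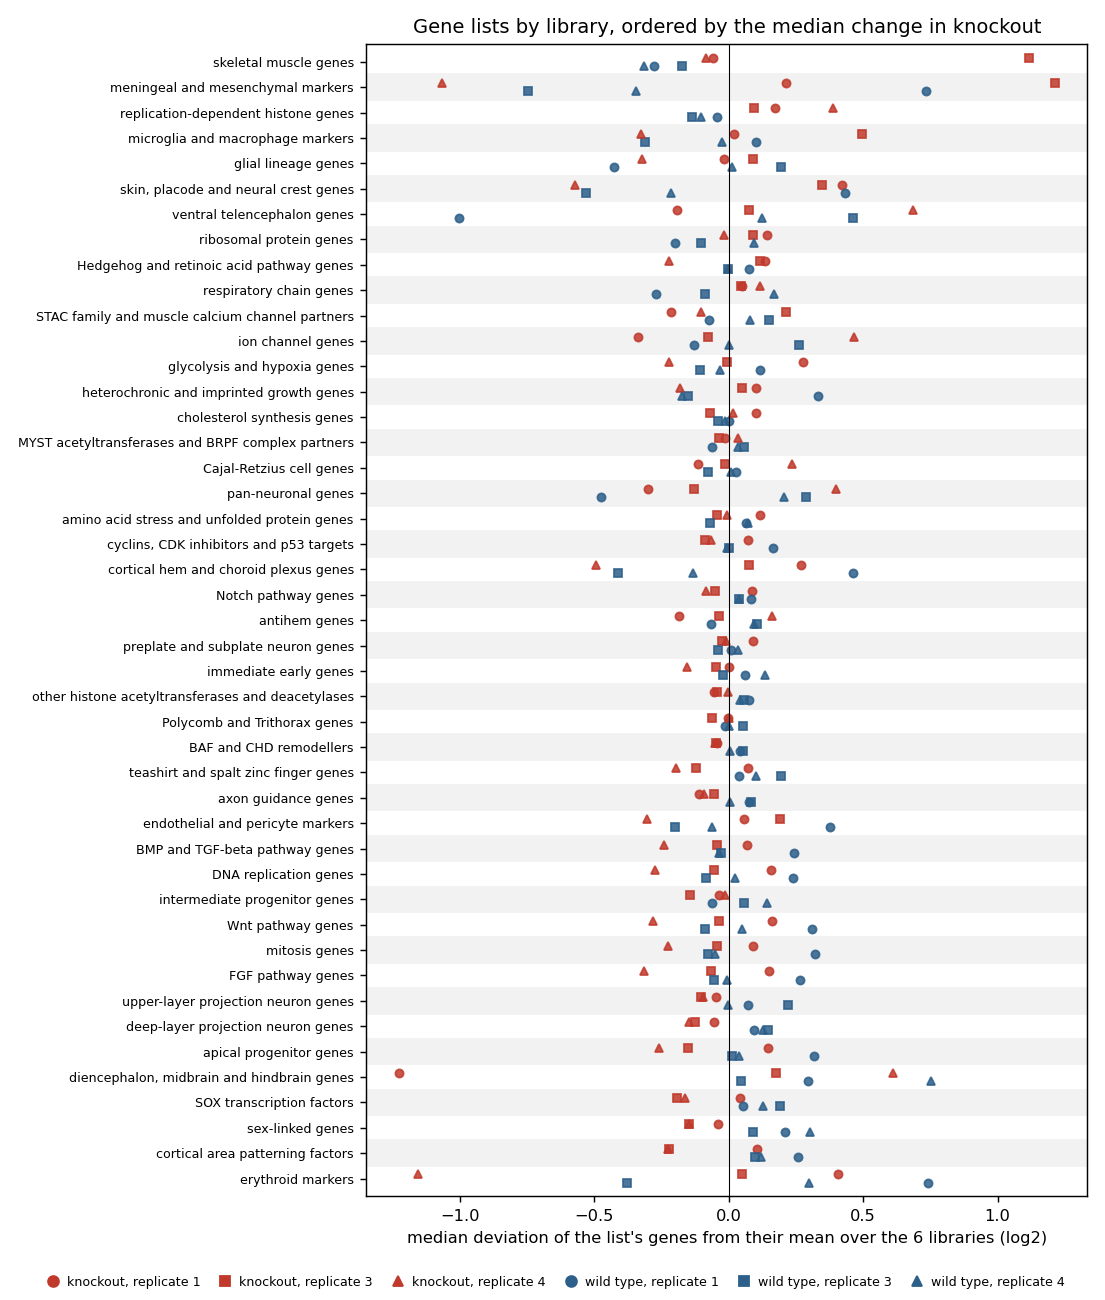
Each row is a gene list, ordered by its median log2 fold change, and each point is 1 library: the median over the list's tested genes of the deviation (log2 CPM) from the mean of the 6 libraries, with knockout in red above wild type in blue. All knockout points lie left of all wild-type points for the deep-layer, upper-layer, axon guidance, SOX and sex-linked lists. The same holds for the BAF and CHD remodellers and the other acetyltransferases and deacetylases. For the replication-dependent histone and skeletal muscle lists all knockout points lie to the right. Meningeal, erythroid, ventral telencephalic and pan-neuronal lists spread widely within each genotype.

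Axon guidance genes had 8 of 31 members at an unadjusted p under 0.05, all lower in the knockout, where 3.65% of all tested genes were. Every knockout library lay below every wild-type library for 6 of the 31, against 4.47% of all tested genes, and the median of the list was -0.08. The ligand Sema6d had 50.05, 54.4 and 57.3 CPM in the knockout and 58.6, 81.5 and 71.8 CPM in wild type (-0.39, SE 0.109). Plxna4, a semaphorin receptor, had 52.2, 61.3 and 66.9 CPM in the knockout and 70.0, 99.9 and 86.5 CPM in wild type (-0.51, SE 0.155). The ephrin receptor Epha5 had 78.2, 88.7 and 96.3 CPM in the knockout and 106, 129 and 111 CPM in wild type (-0.40, SE 0.126). At E15.5 the same genes were at -0.03, -0.04 and -0.00. The difference between the ages was not called for any of them (adjusted p of 1.00 each by edgeR).

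Chromatin regulators other than the MYST complexes also held members on the lower side. Of 25 BAF and CHD remodellers 16 lay below 0 (median -0.07) and 5 had every knockout library below every wild-type library (4.47% of all tested genes), among them Smarca4, the BAF ATPase (-0.12, SE 0.0720), Arid2 (-0.25, SE 0.0997) and Chd2 (-0.23, SE 0.0953). The BAF subunit gene Dpf2 had every knockout library above every wild-type library (0.11, SE 0.0709). Of 25 Polycomb and Trithorax genes 14 lay below 0. The Polycomb subunit Bmi1 had 138, 133 and 150 CPM in the knockout and 182, 171 and 152 CPM in wild type (-0.26, SE 0.1001). Kdm6a, an X-linked histone demethylase gene, was at -0.38 (SE 0.110), or -0.25 without the female library. Of 17 other acetyltransferase and deacetylase genes 12 lay below 0, and the deacetylase genes Hdac2 (-0.10, SE 0.0754), Hdac4 (-0.36, SE 0.134) and Hdac9 (-0.27, SE 0.0934) had every knockout library below every wild-type library. Hdac9 had 13.05, 14.7 and 15.9 CPM in the knockout and 17.3, 17.6 and 17.7 CPM in wild type.

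Signalling pathways showed no common direction. Notch genes were split at 13 of 24 below 0, with the effector Hes1 at -0.28 (SE 0.121). Wnt genes had 22 of 28 below 0 (median -0.11) and FGF genes 14 of 19 (median -0.15), but neither list had a member without overlap, and each median changed sign when 1 library was left out. BMP and TGF-beta genes had 19 of 28 below 0 (median -0.08, or 0.02 without wild-type replicate 1), with the receptor Bmpr2 at 42.4, 40.8 and 37.9 CPM in the knockout and 79.8, 52.7 and 43.9 CPM in wild type (-0.54, SE 0.215). Wild-type replicate 1 carried much of that, since the value was -0.26 without it. Hedgehog and retinoic acid genes had 15 of 24 above 0 (median 0.13, or 0.01 without knockout replicate 3, 0.06 without knockout replicate 4 and 0.04 without wild-type replicate 1).

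Short and abundant housekeeping transcripts lay on the higher side by small amounts. Of 46 ribosomal protein genes 43 lay above 0 (median 0.13), where 46.9% of all tested genes lay, and none was called. Every knockout library lay above every wild-type library for 5 of them, against 2.84% of all tested genes. Their median deviations were 0.14, 0.09 and -0.02 in the knockout and -0.20, -0.10 and 0.09 in wild type, so the groups overlapped. Counts of these genes are uncertain, because near-identical pseudogene copies share their reads. Of 31 respiratory chain genes 28 lay above 0 (median 0.13), again with overlapping groups. Cholesterol synthesis genes, by contrast, had a median of 0.02 and 14 of 25 above 0.

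Replication-dependent histone genes, whose transcripts lack a poly(A) tail, lay above 0 in 17 of 23 cases (median 0.29). Every knockout library lay above every wild-type library for 5 of them (2.84% of all tested genes) and below for 1, Hist1h1c (-0.14, SE 0.295). The level of most is very low in such libraries, as for Hist1h1b with 0.370, 0.611 and 0.453 CPM in the knockout and 0.102, 0.0665 and 0.159 CPM in wild type. The median of this list at E15.5 was 0.98. Ribosomal RNA, another transcript without a poly(A) tail, was above every wild-type library in knockout replicates 3 and 4 but not in replicate 1, and its part in the histone values was not tested.

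Genes of other regions and cell types followed the library more than the genotype. Ventral telencephalon genes had 18 of 23 above 0 (median 0.14) and a summed level of 1207, 1337 and 1936 CPM in the knockout and 903, 1779 and 1477 CPM in wild type. Genes of the diencephalon, midbrain and hindbrain summed to 142, 351 and 594 CPM in the knockout and 440, 459 and 551 CPM in wild type. Tcf7l2, a thalamic factor, had 23.8, 102 and 233 CPM in the knockout and 165, 199 and 210 CPM in wild type. En1, a midbrain and hindbrain factor, had 6, 131 and 7 counts in the knockout and 0, 0 and 0 counts in wild type. Taking 3 counts per library as the limit that a count of 0 allows, the wild-type limits were 0.0665 to 0.159 CPM.

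Erythroid markers lay below 0 in 15 of 15 cases (median -0.32), with a summed level of 3878, 2695 and 1405 CPM in the knockout and 4053, 2185 and 3988 CPM in wild type. That median was 0.04 without knockout replicate 4. Microglial markers summed to 97.7, 147 and 76.7 CPM in the knockout and 127, 79.6 and 94.2 CPM in wild type, and endothelial markers to 412, 452 and 305 CPM in the knockout and 525, 330 and 364 CPM in wild type. The groups overlapped in each of these 3 sums. The part of tissue makeup in the differences of the cortical regulators was not tested.

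The E12.5 effect was set beside the effect of the same genotype at E15.5, which uses other embryos. By edgeR 0 of 16118 genes differed between the ages at an adjusted p of 0.05 (0%), with 438 at an unadjusted p under 0.05 (2.72%). At E15.5 itself 0 genes were called (0%), with 456 at an unadjusted p under 0.05 (2.83%). Stac at E15.5 stood at 4.88 ± 0.507 CPM in the knockout and 4.75 ± 0.674 CPM in wild type (SD, n = 5 each), which is 0.05 on the log2 scale (SE 0.134). The difference between the ages was -1.41 (SE 0.221, adjusted p = 0.114 by edgeR). It passed by DESeq2 (adjusted p = 7.09e-05) and by limma-voom (0.0451), while the edgeR alternatives gave 0.0577 to 1.00. The other 11 lower genes of smallest p had E15.5 values between -0.34 and 0.13, and 6 of all 12 had the same sign at both ages.

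Lhx2, Nr2e1, Otx1, Nfib and Neurod6 were among the named lower genes with the same sign at both ages. Lhx2 was at -0.55 at E12.5 and -0.40 at E15.5, Nr2e1 at -0.29 and -0.47, and Otx1 at -0.43 and -0.57, in the same order of ages. Nfib was at -0.63 at E12.5 and -0.06 at E15.5, and Neurod6 at -0.81 and -0.13. The differences between the ages were not called for these 5 genes (adjusted p of 1.00 each by edgeR). Other named lower genes changed sign. Neurod4 was at -0.56 at E12.5 and 0.14 at E15.5, Cnr1 at -0.56 and 0.10, and Reln at -0.31 and 0.42.

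The effect of knockout was also compared with that of Tg(Kat6b) at E12.5, each within its own strain, in a fit of all 32 libraries. By edgeR 2 of 16399 genes differed (0.0122%), Kat6b and Stac, and 1184 had an unadjusted p under 0.05 (7.22%). Kat6b stood at 547 ± 54.7 CPM in Tg(Kat6b) and 177 ± 20.2 CPM in its wild type (SD, n = 4 each). Stac stood at 2.94 ± 0.280 CPM in Tg(Kat6b) and 2.33 ± 0.413 CPM in its wild type, a log2 fold change of 0.34 against -1.37 in the knockout. The difference was -1.69 (adjusted p = 0.00270 by edgeR), and it did not pass with a replicate block (0.145), a litter block (0.0889) or the 4 compared groups alone (0.229). DESeq2 put this difference at -1.71 (SE 0.263) but gave it no adjusted p, so Stac could not be among its calls. The wild-type level of Stac also differed between the strains, 5.08 ± 0.0162 CPM in C57BL/6 and 2.33 ± 0.413 CPM in FVBxBALB/c, where strain and sequencing batch cannot be told apart.

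Of the 12 lower genes of smallest p 7 had the opposite sign in Tg(Kat6b), and their median there was 0.07. Tshz1 was at 0.21 in Tg(Kat6b), with a difference of -0.57 (adjusted p = 0.530 by edgeR). The higher gene Cxcl14 was at 1.30 in Tg(Kat6b), where 1 library of 29.4 CPM stood against a median of 3.35 CPM, and so it did not separate the genotypes there. Cxcl14 and Gdf10 at E15.5 were at 0.32 (SE 0.206) and 0.12 (SE 0.257).

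**Figure D5:**
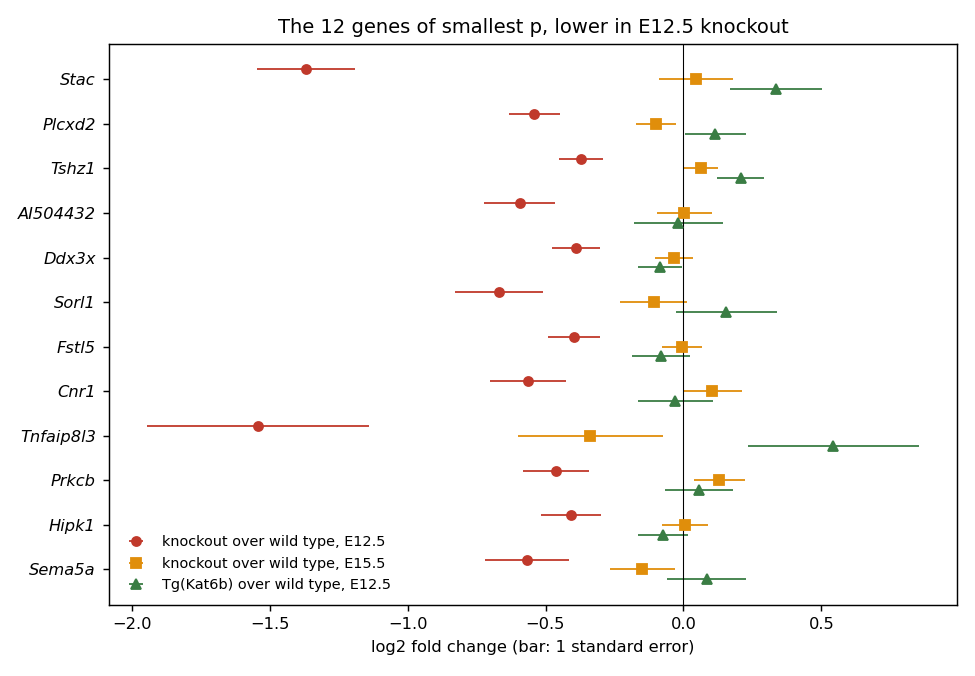
Log2 fold changes with 1 standard error for the 12 genes of smallest p that were lower in the E12.5 knockout, beside their values in the E15.5 knockout and in E12.5 Tg(Kat6b), each over its own wild type. At E15.5 the 12 genes lie between -0.34 and 0.13, and Stac is far below 0 in the E12.5 knockout alone of the 3 comparisons drawn.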

How the data were processed

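Total RNA of 32 mouse embryo samples, 1 embryo each, was sequenced as paired ends on a NextSeq500 from TruSeq RNA v2 libraries, per the labels' protocols. The files deposited by the authors hold raw gene counts, made with featureCounts on mm10 after bcl2fastq, per the submitters' processing notes. Neither the aligner nor the annotation, nor any version, is stated there.

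Of 27179 entries per library, 848 without a gene ID (0.308% to 0.395% of the counts of the 6 E12.5 libraries) were left out. The knockout was compared with wild type by edgeR 4.0.16 (R 4.3.3), with the quasi-likelihood test, TMM scaling and at least 10 counts per gene by filterByExpr. All 16 C57BL/6 libraries shared 1 estimate of the spread, and 32 libraries entered the comparison with Tg(Kat6b). P-values were adjusted by Benjamini-Hochberg over all genes tested, with a threshold of 0.05. The scripts were tested on simulated data. Standard errors are the log2 fold change over the root of the F statistic.

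Alternatives were DESeq2 1.42.0, limma 3.58.1 (voom with quality weights), other scaling and filters, replicate and litter blocks, a Y-linked covariate, fewer or more groups, and each library left out. Leaving out E15.5, Tg(Kat6b) or FVBxBALB/c libraries in turn and a covariate of mesenchymal markers were added after the data were seen.

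Named genes are Kat6b, genes past the test, the 12 of smallest p in each direction, from each list the first 3 and the 4 of smallest p, the leading genes of the difference contrasts, and genes within 1000000 bp of Kat6b. Kat5, Kat8, Brpf1, Brd1, Brpf3, Ing5, Meaf6, Dpf2 and Hdac2 fall outside this rule and were chosen after their values were seen. The members and lists were chosen with earlier results of these data known. With 3 libraries a group, an exact permutation test of 1 gene cannot go below p = 0.10. Replicate numbers were shared by littermates, per the labels, at number 1 within 1 litter and at numbers 3 and 4 within another. Deviations of same-numbered E12.5 libraries correlated at 0.39, -0.36 and 0.33 for numbers 1, 3 and 4. The headers of both E15.5 replicates 5 carry E12.5 names, and they were kept in the groups of their titles. Gene positions are those of GRCm38, matched by Entrez ID for 15807 of 16118 tested genes.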

Additional observations from a re-analysis of the deposited data

Results flagged for a closer look

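For 2 genes the effect of the knockout and the effect of Tg(Kat6b) differed at E12.5 by a test of the difference itself, in edgeR's quasi-likelihood fit of all 32 libraries. For Kat6b the difference of the log2 fold changes, knockout minus Tg(Kat6b), was -1.77 (adjusted p = 8.82e-06). It comes from the transgenic side, since the effect of Tg(Kat6b) was 1.62 and that of the knockout was -0.16. For Stac the difference was -1.69 (adjusted p = 0.00270), with -1.37 in the knockout and 0.34 in Tg(Kat6b). The call for Stac was lost by edgeR with a litter block (adjusted p = 0.0889), a replicate block (0.145) and the compared groups alone (0.229). DESeq2 gave -1.71 (SE 0.263) with no adjusted p. The knockout and the transgene were each set against wild type of their own strain, and strain and sequencing batch cannot be told apart.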

How the results depend on the processing

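For the knockout against wild type at E12.5, 1 gene was called by edgeR. DESeq2 called 5, while the replicate block, the litter block, the Y-linked covariate and the fit of the 6 compared libraries alone each called 0. With each replicate left out in turn the number was 0 to 2, with 0 without wild-type replicate 3 or 4 or knockout replicate 3 or 4. Without knockout replicate 1 Tshz1 was called beside Stac (adjusted p = 0.0412), and without wild-type replicate 1 Nwd1 was (0.0217). The difference from E15.5 had 0 calls by edgeR, with 438 genes at an unadjusted p under 0.05, and 1 call each by DESeq2 and limma-voom. The difference from Tg(Kat6b) had 2 calls by edgeR, 6 by DESeq2, which gave Stac no adjusted p, and 74 by limma-voom. It had 1 with the replicate block, 1 with the litter block and 1 with the compared groups alone. The cause of these changes was not tested. Under the replicate block Stac was at -1.37 with an adjusted p of 0.150 by edgeR, and the block pairs embryos of the same litter by number only. No value reported here reversed its sign where it was called. Of the 45 list medians, 25 changed sign with some library left out and 0 under the size factors of DESeq2. Genes with a few counts in most libraries, such as Matn4, En1 and Tnfaip8l3, are limited by depth. Matn4 and En1 also rest on knockout replicate 3, with 207 and 131 counts there and at most 6 and 7 in any other library.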
